A study of Mus musculus with 6 samples.

Results

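The 10 genes of prostaglandin E2 (PGE2) synthesis, breakdown and reception were examined in mouse colon: the cyclooxygenases *Ptgs1* and *Ptgs2*, the PGE synthases *Ptges*, *Ptges2* and *Ptges3*, the breakdown enzyme *Hpgd*, and the EP receptors *Ptger1*, *Ptger2*, *Ptger3* and *Ptger4*. They were taken by gene symbol from the 18477 genes of the deposited table, where all 10 were found, and all 10 were among the 14579 genes that passed the filter on low counts. The mice were male C57BL/6, 6 to 8 weeks old when obtained, and every mouse drank water with 2% (w/v) dextran sulfate sodium (DSS), which damages the lining of the colon and so causes colitis, for the last 7 of 14 days. During the 14 days the DSS group was gavaged daily with PBS (n = 3), and the DSS+BV group with *Bacteroides vulgatus*, a gut bacterium, in PBS (n = 3). RNA from the colon of each mouse made 1 library. No healthy colon is among the 6 libraries, so the values compare 2 groups of colitic mice and not colitis with health.

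Prostaglandins are lipid mediators made from arachidonic acid. A cyclooxygenase, either the widely expressed Ptgs1 or the inducible Ptgs2, converts arachidonic acid to prostaglandin H2, and a PGE synthase converts that to PGE2. PGE2 acts on 4 G protein-coupled receptors, of which EP2 and EP4 raise cAMP, EP3 mainly lowers it and EP1 signals through calcium. Hpgd oxidises PGE2 to an inactive form. In the colon PGE2 is known for its part in epithelial repair after injury, as well as in inflammation, pain and motility.

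The library totals lay between 15293276 and 17254343 expected counts. The libraries did not cluster by treatment: by correlation of log2 CPM across the tested genes, DSS 1, DSS 3 and DSS+BV 1 formed one cluster, the remaining libraries (DSS 2 with DSS+BV 2 and 3) formed the other, and DSS 1 was most like DSS+BV 1 (r = 0.967 across genes, which are not independent replicates). Each fold change below is also given with single libraries left out. Values of libraries are listed in the order 1, 2 and 3. The epithelial markers *Epcam*, *Cdh1*, *Krt8* and the rest of a list of 10 were above 0 in every library, as were those of smooth muscle, fibroblasts and macrophages, so that markers of the colon wall were present under the label of colon. No pair of libraries within a group was close enough to be 1 library deposited more than once (chi-square over degrees of freedom, lowest 43.7 and highest 125).

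The upstream sequences of *Ptgs2*, *Ptges*, *Hpgd* and *Ptger2* are shown as examples of inducible synthesis, breakdown and reception, and none of the 4 genes passed the adjusted threshold in edgeR. Each is the 250 bases before a RefSeq transcript start in GRCm38.p6 (for *Ptges* a start inside the gene's span), written 5′ to 3′ on the strand of the gene, with matches to 7 searched motifs in capitals. A sequence was held for 9 of the 10 genes, and *Ptger1* is named only.
Ptgs2, chr1:150099781-150100030, plus strand: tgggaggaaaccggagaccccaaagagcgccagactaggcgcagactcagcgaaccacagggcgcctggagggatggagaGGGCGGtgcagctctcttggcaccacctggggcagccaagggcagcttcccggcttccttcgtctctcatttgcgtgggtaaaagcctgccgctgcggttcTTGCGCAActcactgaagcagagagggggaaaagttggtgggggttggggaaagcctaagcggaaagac
Ptges, chr2:30903298-30903547, minus strand: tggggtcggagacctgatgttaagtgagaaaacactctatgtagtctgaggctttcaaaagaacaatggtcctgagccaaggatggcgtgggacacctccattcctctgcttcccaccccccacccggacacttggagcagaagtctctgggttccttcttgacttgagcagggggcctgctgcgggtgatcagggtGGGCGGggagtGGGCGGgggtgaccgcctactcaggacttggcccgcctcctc
Hpgd, chr8:56294302-56294551, plus strand: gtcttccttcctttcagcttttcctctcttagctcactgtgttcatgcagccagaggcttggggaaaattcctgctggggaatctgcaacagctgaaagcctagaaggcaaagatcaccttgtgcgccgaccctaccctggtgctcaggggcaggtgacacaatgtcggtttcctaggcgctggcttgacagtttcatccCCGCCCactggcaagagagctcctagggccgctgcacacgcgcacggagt
Ptger2, chr14:44987861-44988110, plus strand: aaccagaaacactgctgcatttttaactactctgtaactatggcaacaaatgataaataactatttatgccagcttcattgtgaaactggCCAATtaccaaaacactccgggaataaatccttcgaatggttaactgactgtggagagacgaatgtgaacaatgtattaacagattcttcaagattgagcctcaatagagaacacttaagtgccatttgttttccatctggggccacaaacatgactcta
The motifs were searched for on both strands. They were the element TATAAA of many core promoters, the core TGACG of the cAMP response element, the E-box CACGTG, the C/EBP core TTNNGCAA, the GC box GGGCGG, the box spelled CCAAT and an NF-kB motif. The capitals mark a GC box and a C/EBP core in *Ptgs2*, 2 GC boxes in *Ptges*, a GC box on the opposite strand in *Hpgd* and a CCAAT box in *Ptger2*. The C/EBP core of *Ptgs2* begins 69 bases before the start and reads the same on both strands. Of 32851 mouse promoter windows of the same length, 9.56% held a C/EBP core, 32.7% a GC box and 33.8% a CCAAT box. Among the 9 held windows of the prostaglandin genes, 6 had a GC box, 2 a CCAAT box, 1 an E-box (*Ptges2*; 6.02% of all windows) and 1 a C/EBP core. None of the 9 had TATAAA, the core of the cAMP response element or the NF-kB motif, which were present in 12.4%, 17.8% and 1.41% of all windows. These are matches of letters in 1 window, not binding sites. The starts used for *Ptgs1* and *Ptger3* also lie inside the gene's span, and an absent motif is absent from the searched window only.

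Levels were compared between genes as CPM (the expected count scaled to the size of its library) per kb of the longest coding transcript of GENCODE M21, and are given here as medians of the 6 libraries. By this median *Hpgd* stood highest at 75.2 CPM per kb, followed by *Ptges3* at 61.0, *Ptgs1* at 26.1, *Ptgs2* at 8.25, *Ptger4* at 8.18, *Ptges* at 6.40, *Ptges2* at 4.77, *Ptger1* at 1.89, *Ptger2* at 1.1 and *Ptger3* at 1.05 CPM per kb. The breakdown enzyme was thus among the best expressed of the 10 genes, and *Ptger4* was the best expressed EP receptor. Of the neighbours in this order, *Ptges3* and *Ptgs1* did not overlap in their ranges over the 6 libraries (39.5 to 72.0 against 22.0 to 31.8 CPM per kb). Nor did *Ptgs1* and *Ptgs2* (4.06 to 19.6 CPM per kb). The ranges of all other neighbours overlapped, although *Ptger1* was above *Ptger2* within every library. The order differed between the groups for some neighbours. In the DSS group the mean of *Ptges3* (52.2 CPM per kb) was above that of *Hpgd* (50.2), and that of *Ptges* (9.89) above that of *Ptger4* (7.51), whereas with *B. vulgatus* *Ptges* (4.18) was below *Ptger4* (8.47). The order also depended on the transcript model. Within the RefSeq span of *Ptges2* the transcript is 1946 and not 4978 bases long, which would place *Ptges2* at 12.2 CPM per kb, between *Ptgs1* and *Ptgs2*. With the shortest coding transcripts *Ptges3* (78.3 CPM per kb) stood above *Hpgd* (75.2), *Ptger4* above *Ptgs2*, and *Ptger3* above *Ptger2*. The plot of levels per transcript length shows these values for each library.

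**Figure D1:**
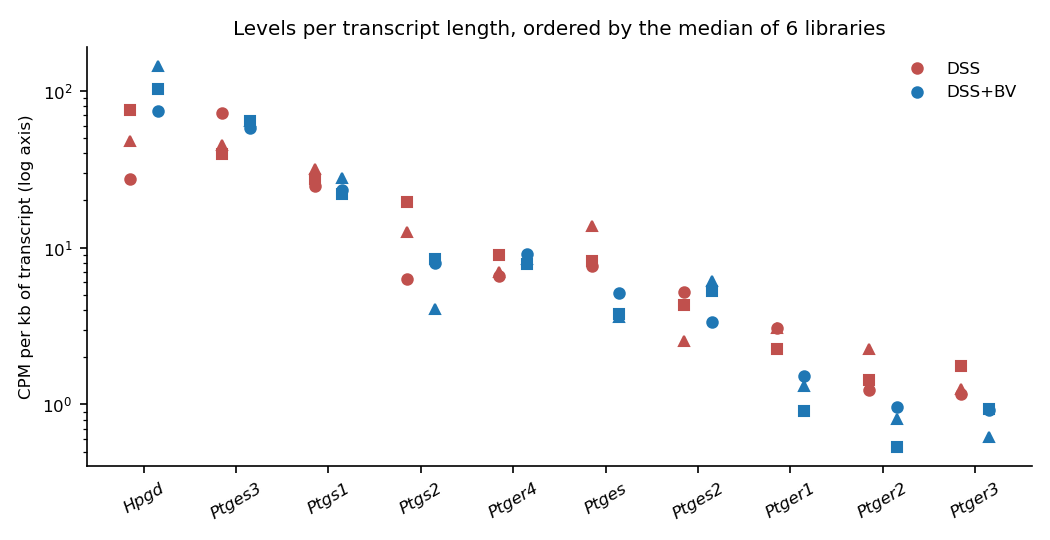
Level of each gene in CPM per kb of its longest coding transcript (log axis), with red for DSS and blue for DSS+BV and a circle, square and triangle for libraries 1, 2 and 3 of a group. Genes are ordered by the median of the 6 libraries, from *Hpgd* (75.2) to *Ptger3* (1.05); the points of *Ptges*, *Ptger1*, *Ptger2* and *Ptger3* separate by group.

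The question of the comparison was how gene expression in DSS colitis differed when *B. vulgatus* was given. None of the 10 genes passed the thresholds of the study (adjusted p under 0.05 and absolute log2 fold change over 1) in edgeR's quasi-likelihood test, where 0.0892% of all tested genes passed in the lower direction and 0% in the higher. At an unadjusted p under 0.05, 4 of the 10 had lower fitted values in DSS+BV (*Ptges*, *Ptger1*, *Ptger2* and *Ptger3*; 9.12% of all tested genes) and 1 had a higher one (*Hpgd*; 3.40% of all tested genes), 5 in either direction (12.5%). In those 4 genes every DSS+BV library lay below every DSS library, a separation seen in 11.3% of all tested genes, and no gene of the 10 was separated in the higher direction (6.37%; 17.6% in either direction). DESeq2 is the package with which the study itself applied these thresholds. With DESeq2, 2 of the 10 passed as lower, *Ptges* and *Ptger1* (1.73% of all genes with a DESeq2 adjusted p). In the higher direction 0 passed (0.279%, or 2.01% in either direction). The median log2 fold change of the 10 genes, DSS+BV against DSS, was -0.48, with 6 below 0 and 4 above, and that of all tested genes was -0.01, with 51.5% below 0.

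**Figure D2:**
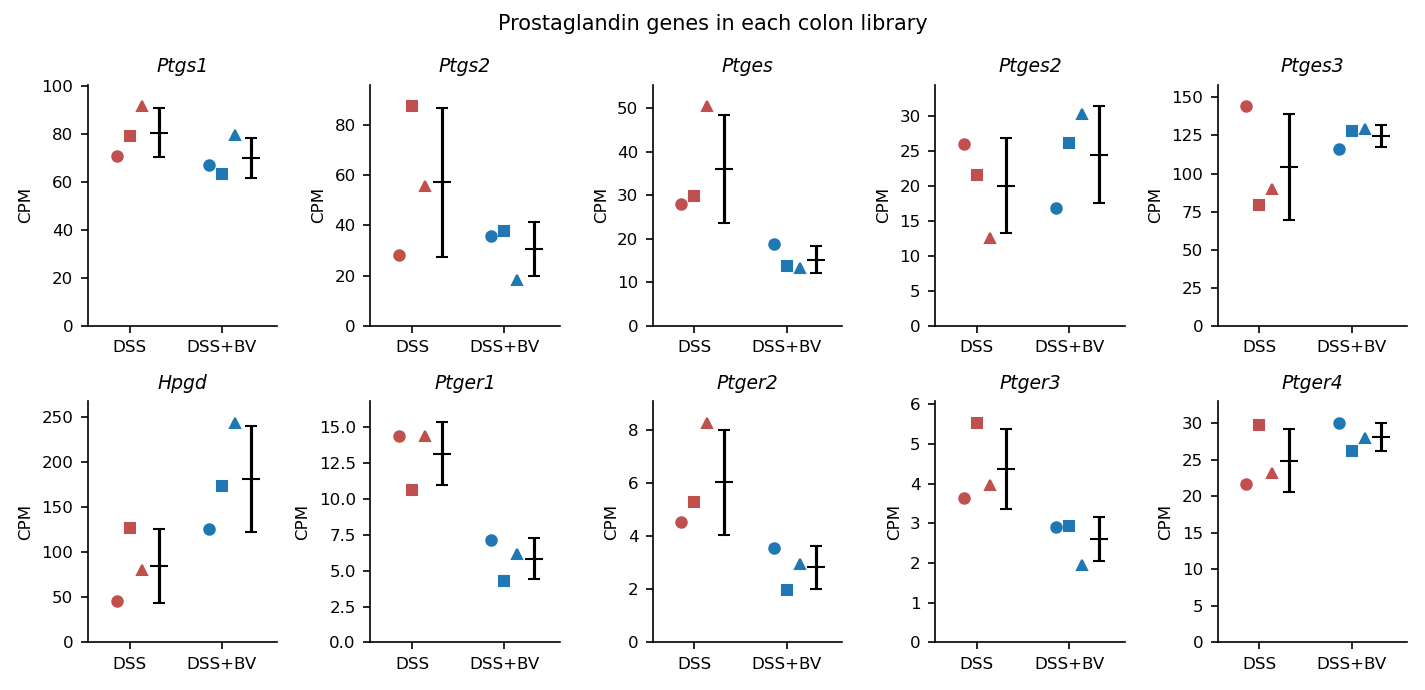
CPM of each of the 10 genes in each library, with red for DSS, blue for DSS+BV, a circle, square and triangle for libraries 1, 2 and 3, and the black bar for the mean ± SD of the 3 libraries. *Ptges*, *Ptger1*, *Ptger2* and *Ptger3* are lower in every DSS+BV library, and the *Hpgd* groups meet at DSS 2 (127 CPM) and DSS+BV 1 (126 CPM).

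The cyclooxygenases differed in how much they varied between mice. *Ptgs1* (Entrez gene 19224; chromosome 2, 36216742 to 36258593, plus strand; 11 exons in the longest coding transcript) was at 70.8, 79.1 and 91.3 CPM in the DSS libraries, against 67.1, 63.1 and 79.4 CPM in the DSS+BV libraries. These groups overlapped, with means of 80.4 ± 10.3 and 69.9 ± 8.51 CPM (SD, n = 3 each). The log2 fold change of *Ptgs1* was -0.20 (95% interval -0.57 to 0.16, edgeR adjusted p = 0.614), and -0.30 to -0.10 with 1 library left out. A difference of 2-fold in *Ptgs1* lies outside this interval.

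*Ptgs2* (Entrez gene 19225; chromosome 1, 150100031 to 150108234, plus strand; 10 exons), the inducible cyclooxygenase, was at 28.1, 87.3 and 55.8 CPM in the DSS libraries, against 35.6, 37.9 and 18.1 CPM in the DSS+BV libraries. The highest values belonged to DSS 2 and DSS 3, but DSS 1 lay below DSS+BV 1 and DSS+BV 2, so the groups overlapped. Its log2 fold change was -0.90 (standard error 0.453, 95% interval -1.98 to 0.18, edgeR adjusted p = 0.465). It depended on single DSS mice, since it was -0.45 without DSS 2 and -1.22 without DSS 1. DSS 2 was the only library with more *Ptgs2* than *Ptgs1* before correction for length, with a ratio of 1.1, and the ratio lay between 0.229 and 0.611 in the other libraries.

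Among the PGE synthases, *Ptges* stood apart from *Ptges2* and *Ptges3* in its values. *Ptges* (Entrez gene 64292; chromosome 2, 30889471 to 30931020, minus strand; 3 exons) encodes the inducible membrane-bound PGE synthase that commonly acts together with Ptgs2. It was at 28.0, 29.8 and 50.4 CPM in the DSS libraries, against 18.7, 13.8 and 13.2 CPM in the DSS+BV libraries. The lowest DSS value was 28.0 and the highest DSS+BV value 18.7 CPM, so the groups did not overlap. The fitted level was 2.37-fold higher in the DSS group (log2 fold change -1.25, standard error 0.282, 95% interval -1.92 to -0.57, unadjusted p = 0.00342, adjusted p = 0.239 in edgeR's quasi-likelihood test). DESeq2 gave an adjusted p of 0.0092 with a log2 fold change of -1.23, while the edgeR alternatives gave adjusted p-values from 0.162 to 0.903. The log2 fold change was -0.93 without DSS 3, the library with the highest *Ptges*, and -1.41 without DSS+BV 1.

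*Ptges2* and *Ptges3* encode synthases that are expressed in many tissues, and Ptges3 is also known as the Hsp90 co-chaperone p23. *Ptges2* (Entrez gene 96979; chromosome 2, 32395890 to 32402740) was at 26.0, 21.5 and 12.6 CPM in the DSS libraries, against 16.8, 26.2 and 30.3 CPM in the DSS+BV libraries. *Ptges3* (Entrez gene 56351; chromosome 10, 128058982 to 128077254) was at 144, 79.1 and 90.0 CPM in the DSS libraries, against 116, 128 and 129 CPM in the DSS+BV libraries. In each gene the groups overlapped, and the DSS libraries held the lowest value. For *Ptges3* a DSS library, DSS 1, also held the highest. The log2 fold change was 0.29 for *Ptges2* (95% interval -0.51 to 1.08, edgeR adjusted p = 0.745) and 0.25 for *Ptges3* (95% interval -0.32 to 0.81, edgeR adjusted p = 0.690). With 1 library left out they ran from 0.04 to 0.52 and from 0.10 to 0.55.

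The breakdown enzyme had the opposite sign to *Ptges*. *Hpgd* (Entrez gene 15446; chromosome 8, 56294552 to 56321046, plus strand; 7 exons) was at 46.0, 127 and 80.4 CPM in the DSS libraries, against 126, 173 and 243 CPM in the DSS+BV libraries. DSS 2 and DSS+BV 1 were nearly equal, and the other DSS libraries lay below all DSS+BV libraries. The log2 fold change was 1.1, a 2.14-fold higher fitted level in DSS+BV (standard error 0.403, 95% interval 0.13 to 2.06, unadjusted p = 0.0311, adjusted p = 0.369 in the edgeR test), and DESeq2 gave an adjusted p of 0.143. It was 0.81 without DSS 1 and 1.52 without DSS 2.

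The ratios of the synthesis genes to *Hpgd* within a library do not depend on the scaling between libraries; they were chosen after the values were seen and are given without a test. On the log2 scale, *Ptges* over *Hpgd* was -0.71, -2.09 and -0.67 in the DSS libraries, against -2.75, -3.66 and -4.21 in the DSS+BV libraries. *Ptgs2* over *Hpgd* was -0.71, -0.54 and -0.53 in the DSS libraries, and -1.82, -2.19 and -3.74 in the DSS+BV libraries. Both ratios were lower in every DSS+BV library. For *Ptges* over *Hpgd* this had to follow from the values of both genes and adds nothing to them. *Ptges* separated the groups, and *Hpgd* nearly did so in the opposite direction (127 CPM in DSS 2 against 126 CPM in DSS+BV 1). The DSS mice were close to each other in the second ratio (SD 0.10, n = 3) although *Ptgs2* and *Hpgd* each varied widely among them, because DSS 1 was lowest and DSS 2 highest in both genes. In the DSS+BV group the library with the least *Ptgs2*, DSS+BV 3, had the most *Hpgd*, and the SD of the ratio was 1.02 (n = 3).

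**Figure D3:**
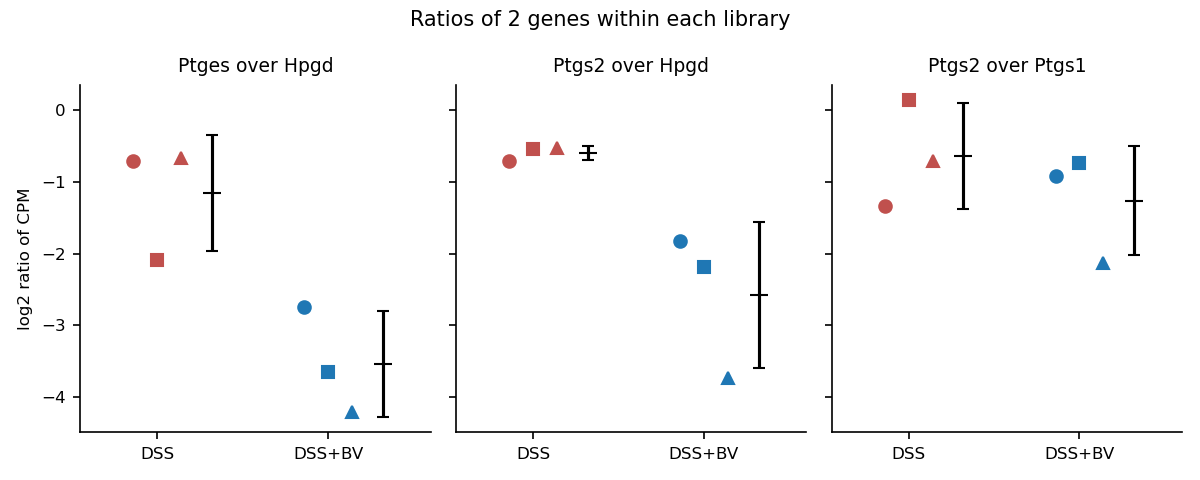
Log2 ratio of the CPM of 2 genes within each library, with red for DSS, blue for DSS+BV, a circle, square and triangle for libraries 1, 2 and 3, and the black bar for the mean ± SD of the 3 libraries. *Ptges* over *Hpgd* and *Ptgs2* over *Hpgd* are lower in every DSS+BV library (means -3.54 against -1.16, and -2.59 against -0.59), and *Ptgs2* over *Ptgs1* overlaps between the groups.

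Of the EP receptors, *Ptger1*, *Ptger2* and *Ptger3* were lower in every DSS+BV library and *Ptger4* was not. *Ptger1* (EP1; Entrez gene 19216; chromosome 8, 83666644 to 83672756, plus strand) was at 14.4, 10.6 and 14.4 CPM in the DSS libraries, against 7.12, 4.27 and 6.13 CPM in the DSS+BV libraries. The groups did not overlap, and the fitted level was 2.25-fold higher in the DSS group. The log2 fold change was -1.17 (standard error 0.268, 95% interval -1.81 to -0.53, unadjusted p = 0.00369, adjusted p = 0.242 in the edgeR test), with a DESeq2 adjusted p of 0.00923 and edgeR alternatives between 0.172 and 0.903. It ran from -1.32 without DSS+BV 1 to -0.98 without DSS+BV 2. Whether the counting used strand is not given in the sources used here, so reads from the opposite strand at *Ptger1* or any other of the 10 genes cannot be told apart from their own.

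*Ptger2* (EP2; Entrez gene 19217; chromosome 14, 44988111 to 45003820) was at 4.55, 5.28 and 8.27 CPM in the DSS libraries, against 3.56, 1.97 and 2.97 CPM in the DSS+BV libraries. Its log2 fold change was -1.09 (95% interval -1.94 to -0.24, unadjusted p = 0.0197, adjusted p = 0.343 in the edgeR test, 0.148 in DESeq2), from -1.28 without DSS+BV 1 to -0.79 without DSS 3. *Ptger3* (EP3; Entrez gene 19218; chromosome 3, 157566821 to 157644758) was at 3.65, 5.53 and 3.96 CPM in the DSS libraries, against 2.90, 2.93 and 1.96 CPM in the DSS+BV libraries. Its log2 fold change was -0.75 (95% interval -1.49 to -0.01, unadjusted p = 0.0476, adjusted p = 0.396 in the edgeR test, 0.341 in DESeq2), from -0.86 without DSS 1 to -0.54 without DSS 2. In each of these receptors the groups did not overlap, and the values rest on 31 to 142 expected counts per library for *Ptger2* and 31 to 89 for *Ptger3*.

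*Ptger4* (EP4; Entrez gene 19219; chromosome 15, 5233399 to 5244187, minus strand), the receptor through which PGE2 is best known to act on colon epithelium and immune cells, was at 21.7, 29.7 and 23.2 CPM in the DSS libraries, against 30, 26.2 and 28.0 CPM in the DSS+BV libraries. The groups overlapped, and the DSS+BV mice were the closer to each other (28.1 ± 1.91 against 24.9 ± 4.26 CPM, SD, n = 3 each). The log2 fold change was 0.17 (95% interval -0.23 to 0.58, edgeR adjusted p = 0.698), and 0.09 to 0.33 with 1 library left out. A 2-fold difference in *Ptger4* in either direction lies outside this interval. Whether the fold change of *Ptger4* differs from that of the other receptors was not tested.

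**Figure D4:**
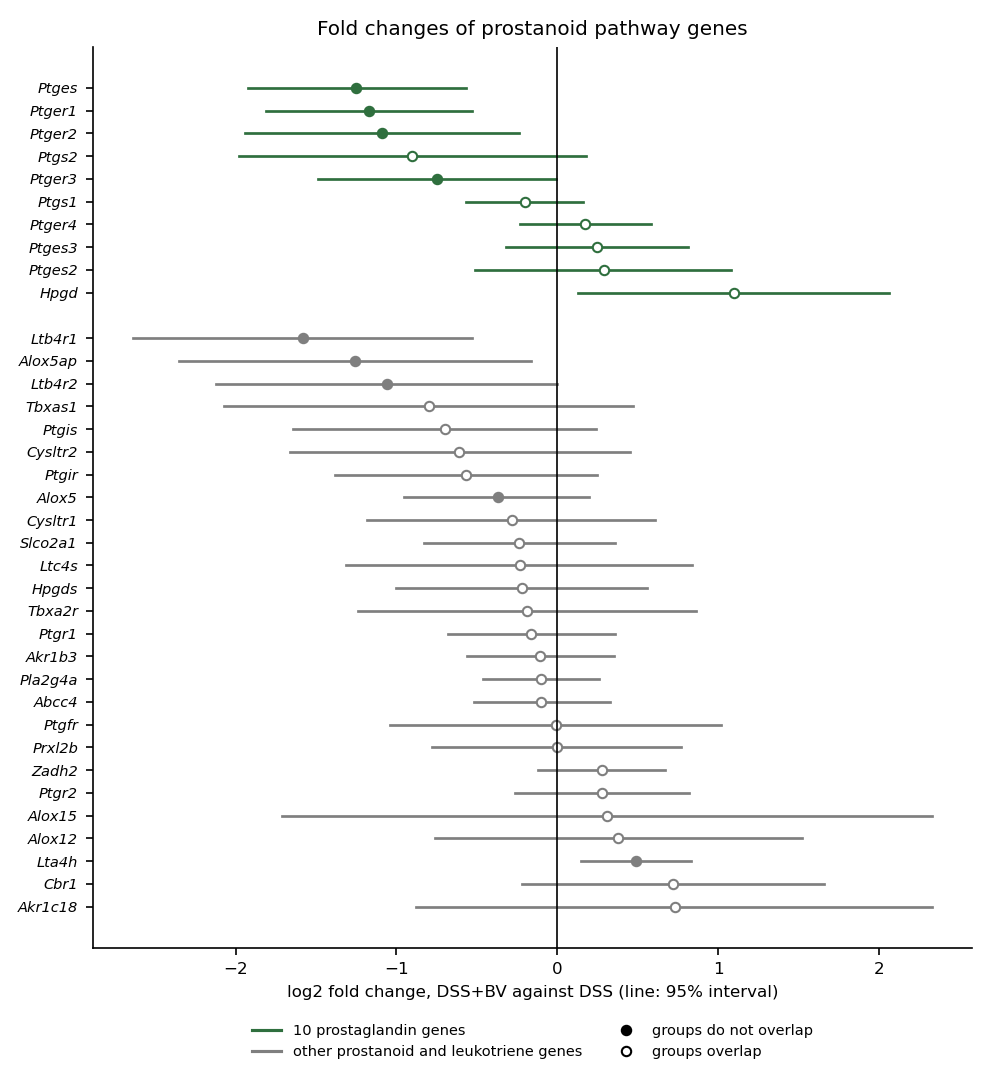
Log2 fold change of DSS+BV against DSS with its 95% interval from the edgeR fit, in green for the 10 prostaglandin genes and in grey for 26 other prostanoid and leukotriene genes, with filled points where the groups do not overlap. The intervals of *Ptges*, *Ptger1*, *Ptger2* and *Ptger3* lie below 0 and that of *Hpgd* above 0. None of the genes drawn passed the adjusted threshold in edgeR.

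The other genes of the pathway were taken from a list of 31, all in the deposited table, of which 26 passed the filter on low counts. *Ptgds*, *Ptgdr*, *Ptgdr2*, *Alox12e* and *Alox8* did not, with at most 7 counts in any library. In the edgeR test 0 of the 26 passed the thresholds, against 3 lower and 1 higher at an unadjusted p under 0.05 (9.12% and 3.40% of all tested genes), and 0 passed with DESeq2. Their median log2 fold change was -0.17, with 19 below 0 and 7 above. That of all tested genes was -0.01, with 51.5% below 0. The groups did not overlap in 4 genes that were lower and 1 that was higher in DSS+BV (11.3% and 6.37% of all tested genes). The counts at an unadjusted p under 0.05 and of groups that did not overlap are near the shares of all tested genes.

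No difference passed the test in arachidonic acid release, transport or the later breakdown steps. *Pla2g4a*, the phospholipase that releases arachidonic acid, was at 72.7 ± 9.78 CPM in the DSS group against 67.9 ± 7.26 CPM with *B. vulgatus* (SD, n = 3 each), with -0.10 as log2 fold change (95% interval -0.46 to 0.26, edgeR adjusted p = 0.812). The prostaglandin transporter gene *Slco2a1*, which brings PGE2 into cells before it is oxidised, was at 149 ± 50.7 and 127 ± 15.5 CPM (SD, n = 3 each; log2 fold change -0.24, edgeR adjusted p = 0.716). The exporter gene *Abcc4* had a log2 fold change of -0.10, and the reductases *Ptgr1*, *Ptgr2* and *Zadh2*, which act after Hpgd, had -0.16, 0.28 and 0.28. The groups overlapped in each of these genes.

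The same held for the synthases of other prostanoids. *Akr1b3*, which can make prostaglandin F, had a log2 fold change of -0.11, and the carbonyl reductase gene *Cbr1* one of 0.72 (95% interval -0.22 to 1.66, edgeR adjusted p = 0.499). All 7 synthase genes tested and all 3 tested receptors for other prostanoids had groups that overlapped.

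The 4 genes with an unadjusted p under 0.05 belonged to the leukotriene branch, which makes other lipid mediators from the same arachidonic acid. *Ltb4r1*, the receptor for leukotriene B4 on neutrophils and other leukocytes, was at 3.23, 2.98 and 5.42 CPM in the DSS libraries, against 1.52, 1.66 and 0.695 CPM in the DSS+BV libraries (log2 fold change -1.58, unadjusted p = 0.00971, edgeR adjusted p = 0.313). *Alox5ap*, which presents arachidonic acid to 5-lipoxygenase and is also one of the tuft cell markers below, was at 13.9, 12.2 and 19.2 CPM and at 10.7, 5.10 and 3.16 CPM (log2 fold change -1.26, unadjusted p = 0.0306, edgeR adjusted p = 0.367). *Ltb4r2* had a log2 fold change of -1.06 (unadjusted p = 0.0499, edgeR adjusted p = 0.399). *Lta4h*, which makes leukotriene B4, was at 95.6, 86.0 and 71.0 CPM in the DSS libraries, against 117, 121 and 116 CPM in the DSS+BV libraries (log2 fold change 0.49, unadjusted p = 0.0119, edgeR adjusted p = 0.320). The groups did not overlap in any of these 4 genes, nor in *Alox5*, with a log2 fold change of -0.37.

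Since EP2 and EP4 raise cAMP, 12 genes known to be induced through cAMP and CREB were also examined; many other signals induce them too. In edgeR 0 of the 12 passed the thresholds, 1 was lower and 0 were higher at an unadjusted p under 0.05 (9.12% and 3.40% of all tested genes), and 0 passed with DESeq2. The groups overlapped in all 12 (17.6% of all tested genes did not overlap). The median log2 fold change was -0.05, with 7 below 0 and 5 above, and the values ran from -1.12 to 0.77. The smallest p-values belonged to the phosphodiesterase gene *Pde4b* (log2 fold change -0.68, edgeR adjusted p = 0.398), the phosphatase gene *Dusp1* (-1.12, edgeR adjusted p = 0.407) and the kinase gene *Sik1* (-0.52, edgeR adjusted p = 0.502).

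Fewer cells of a type and less RNA per cell cannot be told apart in these bulk libraries, and the markers of several cell types differed between the groups alongside the prostaglandin genes. The summed level of 10 fibroblast markers was 3750 to 4100 CPM in the DSS group against 1330 to 1970 CPM with *B. vulgatus*, with all 10 below 0 in log2 fold change. That of 10 endothelial markers was 450 to 589 and 311 to 411 CPM, and that of 10 enteric neuron and glia markers 65.8 to 256 and 47.6 to 52.5 CPM, again with all 10 below 0 in each list. The sum of 10 epithelial markers was 12400 to 14500 CPM in the DSS group against 15800 to 21000 CPM with *B. vulgatus*, with all 10 above 0. The groups did not overlap in these 4 sums, which weigh the genes with the most counts most. *Krt8*, *Krt19* and *Lgals4* were a large part of the epithelial sum. *Epcam*, *Cdh1* and *Cldn7* had log2 fold changes of 0.21, 0.18 and 0.14, against a median of 0.41 for that list. The groups overlapped in 5 of the 10 epithelial markers. *Col3a1* was a large part of the fibroblast sum (log2 fold change -1.78, against a median of -1.03 for that list).

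The sums of the other lists overlapped between the groups. Macrophage and monocyte markers summed to 528 to 1200 CPM in the DSS group against 317 to 737 CPM with *B. vulgatus*, with all 10 below 0 in log2 fold change (median -0.88). Smooth muscle markers summed to 3700 to 4640 and 2850 to 4450 CPM, tuft cell markers to 45.1 to 84.6 and 44.6 to 53.6 CPM, and the 9 mast cell markers found to 40.9 to 127 and 67.8 to 103 CPM. Neutrophil markers summed to 219 to 1040 CPM in the DSS group against 32.2 to 328 CPM with *B. vulgatus*, with *Ly6g* (19.1 to 854 CPM) as a large part of the sum. Of the 10 neutrophil markers 6 passed the thresholds as lower in the edgeR test, all 10 were below 0 and the median log2 fold change was -3.43. No marker found was at 0 in all 6 libraries.

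*Hpgd* overlapped between the groups on its own, and also relative to the epithelial sum. The log2 ratio to that sum was -8.07, -6.81 and -7.50 in the DSS libraries, against -7.23, -6.92 and -6.02 in the DSS+BV libraries. Its means were -6.72 in DSS+BV against -7.46 in DSS. *Ptges* over the epithelial sum was lower in every DSS+BV library (means -10.26 in DSS+BV against -8.62 in DSS). *Ptges* and that sum each separated the groups, in opposite directions, so their ratio had to separate them too. Relative to the fibroblast sum *Ptges* overlapped between the groups (means -6.69 in DSS+BV against -6.81 in DSS). That overlap is with the sum and does not hold for each of its markers. *Col3a1*, a large part of the sum, had a log2 fold change of -1.78, against -1.25 for *Ptges* and a median of -1.03 for the list. The part of cell composition in the differences of *Ptges*, *Hpgd* and the EP receptors was not tested.

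The tested genes with a pattern most like that of a prostaglandin gene were found by Pearson correlation of log2 CPM over the 6 libraries, among 14081 genes with a mean of at least 1 CPM; such values are high by selection from so many genes, and the libraries share their group and depth. For *Ptges* these were *Afap1l2* (r = 0.9982), *Gpm6b* (r = 0.9959) and *Duoxa2* (r = 0.9959). *Duoxa2*, the maturation factor of an epithelial hydrogen peroxide-producing oxidase, was at 124, 125 and 228 CPM in the DSS libraries and 64.4, 49.4 and 42.9 CPM in the DSS+BV libraries, the order of *Ptges* in every library. For *Hpgd* they were *Zfp617*, *Chka* and *Tmc4* (r between 0.9915 and 0.996), for *Ptgs2* *Rpl36a*, *Prxl2a* and *Nrbp2* (r between 0.9783 and 0.999), and for *Ptgs1* *Smpd1*, *Cox17* and *Sdf4* (r between 0.993 and 0.9997).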

How the data were processed

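The authors deposited RSEM expected counts per gene, unscaled between libraries, for the colon of 6 mice (3 per group). The submitters' processing notes name HISAT2 2.1.0, Bowtie2 2.2.5, RSEM 1.2.8 and build GRCm38.p6. Columns were matched to samples by the names in the labels, and the 10 genes had whole values throughout.

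Counts were rounded, filtered with filterByExpr (minimum count 10, minimum total 15) and scaled with TMM factors, and the groups were compared in edgeR 4.0.16 (R 4.3.3) by its quasi-likelihood test, adjusted after Benjamini and Hochberg over 14579 genes. The standard error is the log2 fold change over the square root of F, and 95% intervals use the t distribution. CPM use TMM-scaled totals, and log2 CPM a prior count of 2. DESeq2 1.42.0 (the study also used DESeq2) and other scalings, filters and fits were alternatives. P-values set the difference between the groups against the spread between these libraries only, with the spread of each gene moderated across the tested genes. An exact two-sided permutation test of 3 against 3 cannot go under 0.1. The tests were tried on simulated data, but the outcome is not reported here and no result rests on it.

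The members and gene lists were chosen with earlier results of these data known. Named are the 10 members, pathway genes with an unadjusted p under 0.05 or a mean of at least 20 CPM, the 3 cAMP-responsive genes with the smallest p-values, the 3 genes most like each of *Ptgs1*, *Ptgs2*, *Ptges* and *Hpgd*, and markers whose sum moved with a member; *Alox5* and the genes below the filter were named after their values were seen. Exons shared with neighbouring genes are not reported here. Coordinates and upstream sequences are from RefSeq, and exons and lengths from GENCODE M21 on the same assembly. Plots used matplotlib 3.10.9 (Python 3.11.15).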

Additional observations from a re-analysis of the deposited data

How the results depend on the processing

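The number of all tested genes that passed as lower was 13 with edgeR as reported, 280 with DESeq2 and 0 with the replicate number as a block; as higher it was 0, 45 with DESeq2 and 0 with the block. With 1 library left out in turn it ran from 0 to 3 lower and from 0 to 4 higher genes, both highest without DSS+BV 1; every library left out moved the lower count by more than 1.5 times. Of the 10 prostaglandin genes 0 passed in edgeR under any scaling, filter, robust or block fit or with any library left out, and 2 passed as lower with DESeq2. The counts for the other pathway genes and the cAMP-responsive genes stayed at 0 throughout. All 10 prostaglandin genes kept the sign of their log2 fold change under every alternative. The replicate numbers did not pair the mice (correlations of deviations from the group means 0.27, 0.25 and -0.30), and not every library was most like the one of its own number. With the block no prostaglandin gene passed (*Ptges* -1.21, adjusted p = 0.381 in edgeR). Plain library totals moved every mean CPM by less than 1 SD. Levels without length correction give no order between genes, so that alternative gave no value, and lengths came from GENCODE in place of RefSeq transcripts. The common biological coefficient of variation was 32.1%, and a gene short of the threshold is not shown to be equal between the groups. Counting depth was lowest for *Ptger2* and *Ptger3*.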
